A study of Mus musculus with 32 samples.

Results

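The genes described here are 40 ribosome biogenesis factors, named by a list of symbols and not by a cut on measured values. The list was chosen with earlier results of these data known. All 40 were found among the 55487 gene identifiers of the deposited tables, and all 40 passed the filter on low counts. They comprise the transcription factor Myc, 4 genes of the RNA polymerase I machinery, 5 of the small nucleolar ribonucleoproteins (snoRNPs), 3 abundant nucleolar proteins, 9 of the small-subunit (SSU) processome, 6 of late 40S assembly and 12 of pre-60S assembly.

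RNA was sequenced from cell lines made from mouse fetal liver progenitors and immortalised with ER-HOXB8, an oestrogen-dependent form of HOXB8 that holds myeloid progenitors in an undifferentiated, dividing state. Both lines carried ER-HOXB8 and grew with b-estradiol, stem cell factor and G418. One line, hi-77+/+, was Gata2 -77+/+ (called wild-type here), and the other, hi-77-/-, was Gata2 -77-/- (called mutant here), so it lacked the distal -77 enhancer of Gata2, which encodes a transcription factor of blood progenitors. Each line received vehicle, IFNg at 1 ng/ml, Pam3CSK4 (a lipopeptide ligand of the TLR1-TLR2 receptor pair) at 100 ng/ml, or both agents together for 4 h, with 4 libraries in each of 8 groups. Each genotype was 1 line, so line and genotype cannot be told apart. Xist, which silences an X chromosome, was at 0 to 5 counts per wild-type library and 17404 to 37062 per mutant library. The Y-linked gene Ddx3y was at 5170 to 9329 counts per wild-type library and 1175 to 2414 per mutant library. Every mutant library thus held counts of both genes, and the make-up of that line was not tested. Whether the 4 libraries of a group are separate cultures is not stated in the labels, so the tests rest on library-to-library spread, which may be technical.

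Ribosome production starts when Myc and growth signals raise transcription of ribosomal RNA genes by RNA polymerase I. Box C/D and box H/ACA snoRNPs then modify the precursor RNA, the SSU processome folds and cuts the part that becomes the 40S subunit, and separate sets of proteins build the 60S subunit. Dividing blood progenitors make ribosomes at a high rate, and this pathway is among the best known targets of Myc.

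Library totals ran from 44.18 M to 71.42 M expected counts, and 17416 to 20978 genes had a count. Gata2 was at 35.1 to 54.7 CPM (counts-per-million on the normalised library size) in the wild-type libraries and at 6.01 to 8.42 CPM in the mutant ones. All 11 progenitor markers were at 1 CPM or more in both lines. Of 9 hepatocyte, 9 stromal and endothelial, 8 macrophage and 8 lymphocyte markers, 1 of each list reached that level in either line. The share of counts on structural RNA (mitochondrial genes, residual ribosomal RNA, microRNAs, small nuclear and nucleolar RNAs and other short non-coding classes) differed between groups, from 12.8% to 30.2% over the 32 libraries. It was 23.94% ± 4.17 (SD, n = 4) in wild-type vehicle but 15.89% ± 1.87, 14.84% ± 1.46 and 13.62% ± 0.61 with IFNg, Pam3CSK4 and both in that line, without overlap with vehicle. In the mutant line it was 25.75% ± 1.78, 21.08% ± 3.89, 27.32% ± 2.12 and 22.96% ± 4.77 in the same order. Libraries 1 and 4 of wild-type vehicle had the highest shares of their group.

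The level of each factor per length was taken from transcripts-per-million values (TPM) in the 4 wild-type vehicle libraries. Npm1, which encodes nucleophosmin, a histone and ribosome chaperone, stood at 682 ± 103 TPM (SD, n = 4). Next came the C/D snoRNP core gene Nop56 at 65.8 ± 11.5, the snoRNP chaperone gene Nolc1 at 50.1 ± 11.1 and Fbl, the methyltransferase of C/D snoRNPs, at 48.2 ± 8.69. Nolc1 and Fbl lay within each other's spread, and Nop56 was above both by more than 1 SD. The lowest were Bysl, a 40S assembly factor, at 3.75 ± 0.801 TPM and Dimt1, the dimethyltransferase of 18S ribosomal RNA, at 3.94 ± 0.589, which did not differ beyond their spread. Npm1 and Ncl together made up 29.1% to 38.3% of the summed CPM of the members, so changes are given gene by gene and not for the sum.

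**Figure D1:**
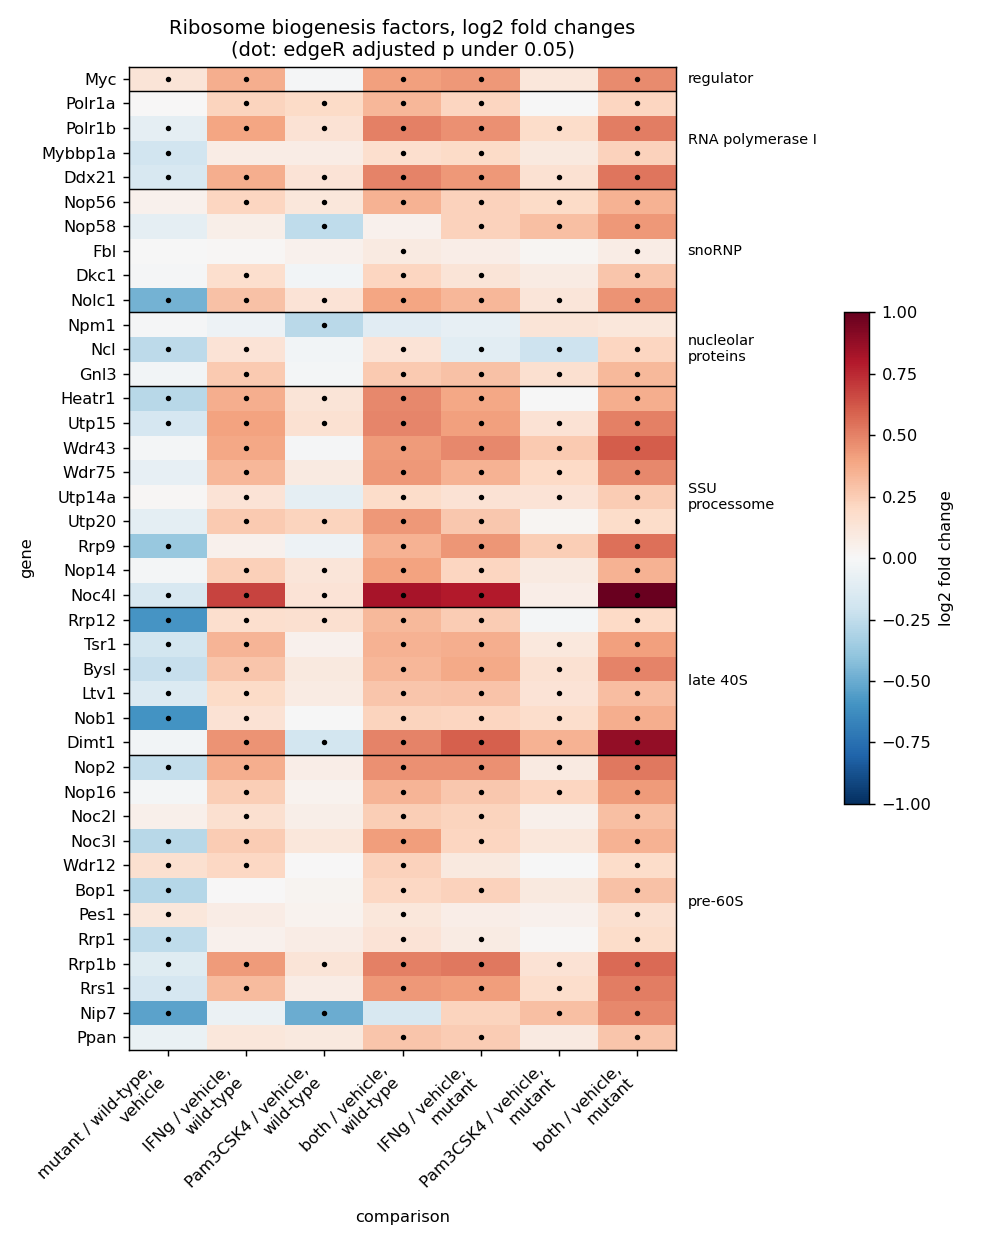
Log2 fold change of each of the 40 members (rows, grouped by role) in 7 comparisons (columns). Red is higher and blue lower, and a dot marks an edgeR adjusted p under 0.05. IFNg, alone or with Pam3CSK4, gives columns that are red for nearly every member, with Noc4l darkest, while the first column, mutant against wild-type in vehicle, is mostly blue.

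Without agonist, the mutant line had lower RNA of many of these factors. Of the 40 members, 21 were lower and 3 higher in the mutant vehicle libraries by edgeR's quasi-likelihood test with Benjamini-Hochberg adjustment over 14869 genes, with 24.4% of all tested genes called higher and 29.3% called lower. The median log2 difference of the members was -0.11, with -0.01 for all tested genes. Between the libraries of the lines 22 members had no overlap. The share of all tested genes without such overlap is not given here, so that count is no result about the members. The 3 higher ones were Wdr12, Myc and Pes1. Because these are bulk libraries, fewer cells of a type and less RNA per cell cannot be told apart.

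Nob1, the endonuclease that makes the last cut of 18S ribosomal RNA (chr8:107412486-107425051, minus strand, mm10), was at 67.9, 67.4, 71.2 and 69.9 CPM in wild-type vehicle and at 47.8, 46.3, 44.9 and 44.0 CPM in mutant vehicle. The ranges were far apart, with a log2 difference of -0.60 (SE 0.042, edgeR adjusted p = 1.6e-14), the lowest of the members. Rrp12, which acts in export and maturation of pre-40S particles, was at 116 to 130 CPM in wild-type and 75.7 to 85.8 in mutant vehicle, a log2 difference of -0.59 (SE 0.048). Nip7, a factor of 60S assembly, had a log2 difference of -0.53 (SE 0.106, edgeR adjusted p = 0.00012), without overlap between the lines. Nolc1 fell by 0.47 (SE 0.039), and Rrp9, a U3 snoRNP protein, by 0.38 (SE 0.082) on the log2 scale.

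Of late 40S assembly 5 of the 6 genes were lower (median log2 difference -0.21), with Dimt1 the exception at -0.03. Of the pre-60S genes, 7 of 12 were lower and Wdr12 and Pes1 higher. These 2 genes encode partners in the PeBoW complex of 60S assembly, whose other component, Bop1, was lower by 0.28 on the log2 scale. In the SSU processome, 4 of 9 genes were lower, namely Heatr1, Utp15, Rrp9 and Noc4l. Of the RNA polymerase I genes Polr1b, Mybbp1a and Ddx21 were lower, while Polr1a was at 144 ± 8.23 CPM in wild-type and 145 ± 7.63 in mutant vehicle.

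Wdr12 (chr1:60069785-60098645, minus strand) had the largest rise, at 155, 142, 127 and 139 CPM in wild-type vehicle and 158, 159, 158 and 153 CPM in mutant vehicle. The mutant values were close together and overlapped the highest wild-type library, and the log2 difference was 0.16 (SE 0.039, edgeR adjusted p = 0.00075). Myc (chr15:61985391-61990374, plus strand) was at 150, 159, 194 and 172 CPM in wild-type vehicle and 177, 187, 180 and 194 in mutant vehicle. These ranges overlapped, with a log2 difference of 0.13 (SE 0.053, edgeR adjusted p = 0.042). Leaving out wild-type library 1, 2 or 4 or mutant library 2 or 4 took the adjusted p of Myc to between 0.052 and 0.22, and adding the share of structural RNA as a covariate took it to 0.06.

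Marker genes of other lineages moved with the line. The 8 erythroid markers summed to 60.8 to 109 CPM in wild-type and 4.35 to 6.63 CPM in mutant libraries, with 6 and 1 of them at 1 CPM or more. The 6 mast cell and basophil markers summed to 562 to 667 CPM in the wild-type line and to 94.1 to 121 CPM in the mutant line, with 5 at that level in each line and Fcer1a at 0 in the mutant. Lower sums in the mutant were also seen for the 9 hepatocyte markers (18.4 to 23.6 and 6.95 to 9.36 CPM, with Ttr at 0 in both lines, Alb and Fgb in wild-type and Serpina1a in mutant) and the 8 macrophage markers (18.1 to 22.7 and 4.55 to 6.3 CPM, with C1qa, Marco, Vsig4 and Timd4 at 0 in both lines and C1qb and C1qc in wild-type). The 8 lymphocyte markers summed to 6.72 to 9.11 and 4.31 to 6.34 CPM (Cd3e and Ncr1 at 0 in both lines, Cd8a in wild-type). The 9 stromal and endothelial markers were higher in the mutant, at 2.26 to 4.03 and 4.88 to 9.58 CPM (Col3a1 at 0 in both lines, Dcn, Cdh5 and Lyve1 in wild-type). The part of these cell types in the lower biogenesis factors was not tested.

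IFNg raised most of the factors in both lines. In wild-type cells 30 of 40 members rose and 0 fell, with 17.8% of all tested genes called higher and 17.6% called lower by edgeR, and a median log2 change of 0.23 (all tested genes -0.01). The count of falls was also 0 at an unadjusted p under 0.05 and by DESeq2. In mutant cells 34 rose and 1 fell, with 18.3% called higher and 14.9% called lower, and a median of 0.26 (all tested genes -0.01). Libraries of IFNg and vehicle did not overlap for 29 members in wild-type and 38 in mutant cells, but the same share over all tested genes is not given here.

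Noc4l (chr5:110648418-110653417, minus strand), the partner of Nop14 in 40S assembly, had the largest rise. It was at 59.6, 63.6, 66.1 and 65.1 CPM in wild-type vehicle and at 103, 98.7, 100 and 104 CPM with IFNg. In mutant cells it went from 54.5, 58.5, 57.5 and 57.2 CPM to 101, 93.6, 96.5 and 104 CPM. Every IFNg library was well above every vehicle library of its line, with a 1.60-fold change in wild-type (log2 0.68, SE 0.039, edgeR adjusted p = 2.9e-16) and a 1.74-fold change in mutant cells (log2 0.80, SE 0.039, edgeR adjusted p = 2.1e-18).

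Myc rose to 220, 211, 207 and 229 CPM with IFNg in wild-type and to 263, 236, 243 and 254 CPM in mutant cells, above all vehicle libraries of either line. The log2 changes were 0.36 (SE 0.053, edgeR adjusted p = 2.2e-06) and 0.43 (SE 0.053, edgeR adjusted p = 5.5e-08). Of the SSU processome 8 of 9 genes rose in wild-type (median log2 change 0.33, range 0.05 to 0.68) and all 9 in mutant cells (median 0.38, range 0.15 to 0.80). Rrp9, the member not called in wild-type, was at 56.5 to 71.2 CPM in vehicle and 61.9 to 73.0 with IFNg there.

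All 6 late 40S genes rose in both lines (median log2 changes 0.23 and 0.32). Dimt1 (chr13:106947127-106960224, plus strand) changed most among them, from 24.4, 22.3, 21.3 and 23.1 CPM to 30.4, 33.4, 31.6 and 29.2 CPM in wild-type and from 23.9, 21.3, 22.4 and 21.7 CPM to 35.2, 35.7, 32.1 and 32.2 CPM in mutant cells. The treated and vehicle ranges were apart in both lines, with log2 changes of 0.45 (SE 0.051, edgeR adjusted p = 1e-08) and 0.60 (SE 0.051, edgeR adjusted p = 1.1e-11). Of the exon bases of Dimt1, 31.91% overlap Kif2a on the other strand. Such overlap was 32.32% for Tsr1 (Srr), 20.86% for Noc2l (Samd11), 11.45% for Utp14a and 9.37% for Bysl (Ccnd3), and smaller for further members. The sources used here do not give the strand setting of the counting.

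Of the RNA polymerase I genes 3 of 4 rose in wild-type and 4 of 4 in mutant cells, led by the second largest polymerase subunit gene Polr1b (log2 0.40 and 0.46) and the helicase gene Ddx21 (0.36 and 0.43). Of the pre-60S genes 7 of 12 rose in wild-type and 9 of 12 in mutant cells, led by Rrp1b (0.43 and 0.53) and the methyltransferase gene Nop2 (0.36 and 0.46). Of the PeBoW genes Pes1 was not called in either line (0.07 and 0.06), Bop1 was not called in wild-type (0.01) and Wdr12 was not called in mutant cells (0.09).

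Npm1 and Fbl changed little. Npm1 was at 2100 to 2870 CPM in wild-type vehicle and 2170 to 2490 with IFNg, and neither line gave a call (log2 -0.05 and -0.08). Fbl was at 144 to 149 CPM in wild-type vehicle and 143 to 157 with IFNg. Ncl, which encodes nucleolin (chr1:86344719-86359400, minus strand), went in opposite directions in the 2 lines. It was at 1081, 1086, 1022 and 1025 CPM in wild-type vehicle and 1144, 1167, 1126 and 1183 CPM with IFNg, whereas in mutant cells it was at 916, 862, 858 and 884 CPM in vehicle and 829, 812, 785 and 845 CPM with IFNg. Neither pair of ranges overlapped, and the log2 changes were 0.13 (SE 0.034, edgeR adjusted p = 0.0026) and -0.11 (SE 0.034, edgeR adjusted p = 0.015). The mutant fall had an adjusted p of 0.07 without IFNg library 3 and 0.072 without vehicle library 1. The snoRNA genes Snora75 and Gm24148 and a microRNA gene share exon bases with the Ncl model on the same strand. Nop56, Gnl3, Ppan and Nop58 also share exon bases with snoRNA genes.

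**Figure D2:**
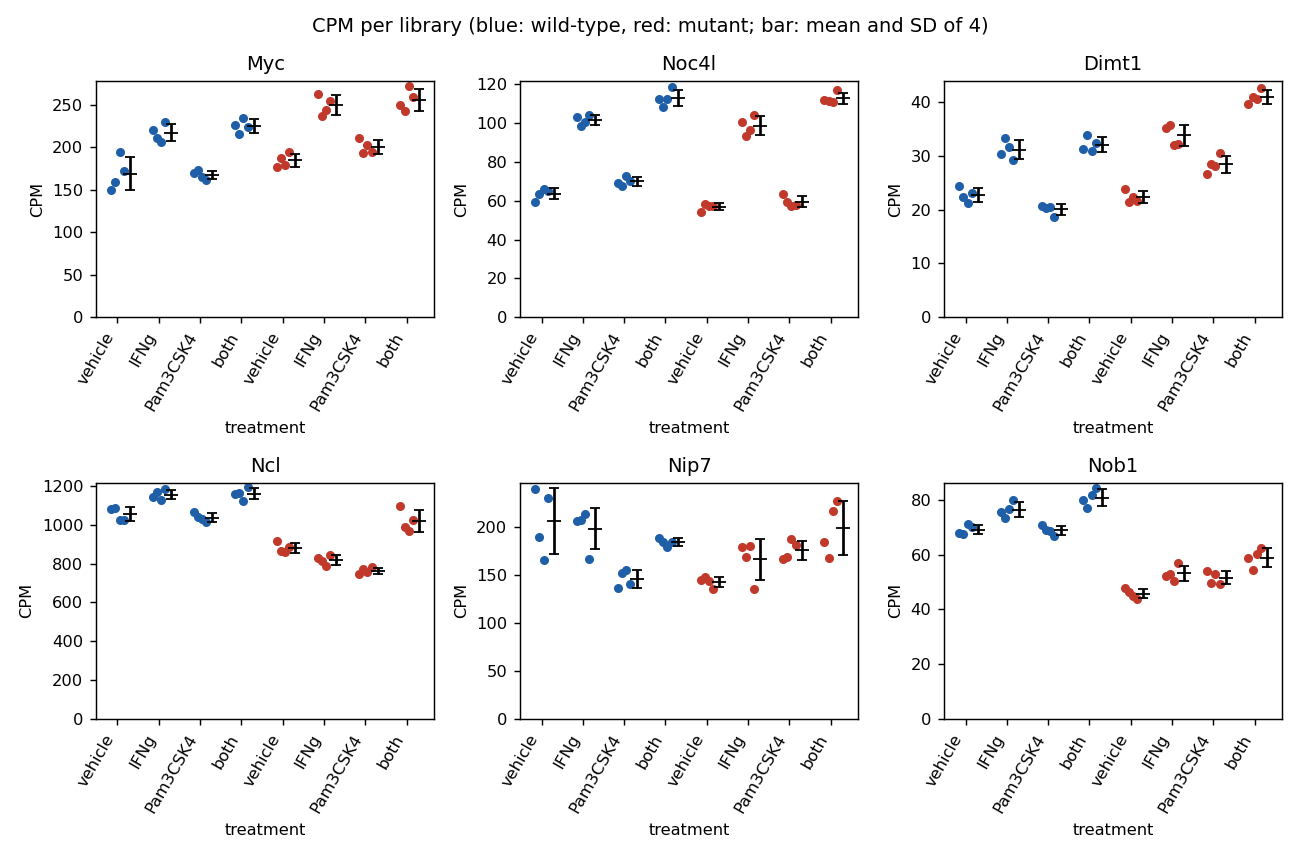
CPM of 6 members in each of the 32 libraries (points; blue wild-type, red mutant; linear axes from 0), with mean and SD of 4 libraries beside them. Myc, Noc4l and Dimt1 stand higher in every IFNg library than in any vehicle library of the same line, Nob1 is lower in every mutant than in every wild-type library, and the Nip7 values of wild-type vehicle spread from 166 to 240 CPM.

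The structural RNA share fell with IFNg in the wild-type line without overlap, so the share and the treatment cannot be told apart there. When the share entered the fit, 28 members rose and 0 fell in wild-type (32 and 0 at an unadjusted p under 0.05), and 26 of the 30 calls were kept. Over all tested genes that fit called 2800, against 5265 without the covariate. In the mutant line the share of the IFNg libraries (15.44% to 24.34%) overlapped that of vehicle (23.52% to 27.88%) through IFNg library 1 only. With the covariate 35 rose and 1 fell there.

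Marker sums also moved with treatment. In wild-type cells the 8 erythroid markers summed to 94.4 to 109 CPM in vehicle, 60.8 to 72.6 with IFNg, 70.8 to 77.1 with Pam3CSK4 and 61.0 to 66.6 with both, so vehicle stood above every treated library. In mutant cells their ranges overlapped between treatments. The mast cell and basophil markers in wild-type cells were at 613 to 667 CPM in vehicle, 562 to 616 with IFNg, 577 to 604 with Pam3CSK4 and 562 to 578 with both, with overlap for IFNg only. In mutant cells they were at 111 to 121 CPM in vehicle, 94.1 to 105 with IFNg, 99.7 to 114 with Pam3CSK4 and 97.9 to 107 with both, with overlap for Pam3CSK4 only. The stromal and endothelial markers were at 2.26 to 2.63 CPM in wild-type vehicle, 2.8 to 3.59 with IFNg and 3.14 to 4.03 with both, without overlap with vehicle. In mutant cells they were at 4.88 to 5.29 CPM in vehicle, 7.42 to 9.0 with Pam3CSK4 and 7.64 to 9.58 with both, again without overlap with vehicle. The 11 progenitor markers were at 5450 to 5580 CPM in mutant vehicle and 4990 to 5380 in the treated mutant libraries, without overlap. In wild-type cells they were at 5260 to 5380 in vehicle and 5030 to 5240 with IFNg. Macrophage markers were at 5.92 to 6.3 in mutant vehicle and 4.55 to 5.81 in treated mutant libraries. Hepatocyte markers were at 20.7 to 22.3 in wild-type vehicle and 18.4 to 20.4 with IFNg. In mutant cells they were at 8.07 to 9.36 in vehicle and 6.95 to 7.9 with Pam3CSK4. Lymphocyte markers were at 6.8 to 7.48 in wild-type vehicle and 7.57 to 9.11 with both. The part of these shifts in the responses of the biogenesis factors was not tested.

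Promoter windows were examined because so many members moved together. RefSeq sequence of GRCm38.p6, from 250 bases before to 50 after a gene start, was matched for 34 members with 38 windows, and Myc was among those not matched. The E-box CACGTG, the letters bound by Myc-Max dimers, was found in 7 of 38 member windows (18.4%) and in 7.2% of all 32851 windows. Windows of 4 members are shown from 120 bases before to 30 after the start, 5′ to 3′ on the gene's strand, with matches in capitals. Wdr43, Nop2 and Tsr1 are the E-box members with the largest IFNg rise in wild-type cells. Noc4l is added, chosen after its values were seen, because it had the largest rise and holds TTCNNNGAA, the spaced palindrome bound by STAT factors.
Wdr43: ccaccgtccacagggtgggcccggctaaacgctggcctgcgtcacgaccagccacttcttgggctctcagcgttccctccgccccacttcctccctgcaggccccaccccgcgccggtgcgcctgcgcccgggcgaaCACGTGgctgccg
Nop2: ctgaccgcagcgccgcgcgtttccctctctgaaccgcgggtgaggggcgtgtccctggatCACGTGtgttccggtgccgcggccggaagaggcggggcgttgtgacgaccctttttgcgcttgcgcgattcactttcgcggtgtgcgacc
Tsr1: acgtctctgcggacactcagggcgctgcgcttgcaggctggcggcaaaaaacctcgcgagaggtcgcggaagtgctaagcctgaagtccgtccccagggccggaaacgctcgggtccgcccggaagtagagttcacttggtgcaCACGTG
Noc4l: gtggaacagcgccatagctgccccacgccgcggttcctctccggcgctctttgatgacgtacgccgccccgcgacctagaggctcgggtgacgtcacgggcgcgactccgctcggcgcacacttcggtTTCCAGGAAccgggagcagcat
The windows are chr17:71616095-71616244 (plus strand), chr6:125131763-125131912 (plus), chr11:74897960-74898109 (plus) and chr5:110653353-110653502 (minus). Counting the start site as base 1, the E-box starts at base 18 in Wdr43 and at base 25 in Tsr1, and the match of Noc4l starts at base 9. In Nop2 the E-box starts 60 bases before the start site.

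TTCNNNGAA was in 5 member windows (13.2%; Nob1, Noc4l, Nop58, Polr1b and Utp15) and in 8.3% of all windows. GATAA, searched on both strands like the others, was in 1 (2.6%, Rrp1b) and in 25.4% of all windows, and the NF-kB consensus was in 1 (2.6%, Tsr1) and in 4.5%. The medians lay close together with and without an E-box, and the difference was not tested. The median IFNg change in wild-type cells was 0.26 for the 7 members with CACGTG and 0.24 for the 27 matched members without it, and with both agents in mutant cells it was 0.31 and 0.36. A match is a description of letters and not of binding.

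Pam3CSK4 alone changed fewer members, and the members called were not the same in the 2 lines. In wild-type cells 12 rose and 4 fell, with 10.4% of all tested genes called higher and 11.7% called lower, a median log2 change of 0.07 (all tested genes 0.0) and no overlap of libraries for 13 members. In mutant cells 21 rose and 1, Ncl, fell, with 11.5% called higher and 12.8% called lower, a median of 0.12 and no overlap for 23 members. For the counts without overlap, the share over all tested genes is not given here. Myc was not called in either line. It was at 169, 174, 164 and 162 CPM in wild-type and at 211, 193, 203 and 194 CPM in mutant cells with Pam3CSK4 (log2 -0.01 and 0.12, edgeR adjusted p = 0.89 and 0.11).

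The largest wild-type rise was that of Utp20, a large scaffold protein of the SSU processome (chr10:88746607-88826804, minus strand). It went from 187, 195, 181 and 180 CPM to 221, 207, 218 and 223 CPM in wild-type, without overlap (log2 0.22, SE 0.043, edgeR adjusted p = 0.00047). In mutant cells it was at 179, 168, 170 and 178 CPM in vehicle and 182, 178, 170 and 173 with Pam3CSK4, with overlapping ranges and no call. Polr1a followed the same pattern, with log2 changes of 0.19 in wild-type and -0.00 in mutant cells.

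The 4 wild-type falls were Nip7, Npm1, Nop58 and Dimt1. Nip7 (chr8:107056877-107060931, plus strand), a factor of 60S assembly and pre-rRNA processing, was at 240, 190, 166 and 230 CPM in wild-type vehicle and 136, 153, 155 and 140 CPM with Pam3CSK4. In mutant cells it was at 144, 148, 143 and 135 CPM in vehicle and 166, 169, 187 and 182 CPM with Pam3CSK4. The ranges were apart in both lines but in opposite directions, with log2 changes of -0.50 (SE 0.106, edgeR adjusted p = 0.0017) and 0.30 (SE 0.106, edgeR adjusted p = 0.038). The wild-type vehicle libraries 1 and 4, with the highest Nip7, also had the highest structural RNA shares of their group, 25.8% and 28.8%.

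Dimt1 showed the same opposite directions. With Pam3CSK4 it was at 20.8, 20.3, 20.6 and 18.6 CPM in wild-type, just under its vehicle range, and at 26.7, 28.6, 28.1 and 30.5 CPM in mutant cells, above it. The log2 changes were -0.18 (SE 0.052, edgeR adjusted p = 0.012) and 0.35 (SE 0.052, edgeR adjusted p = 2.4e-06), the latter the largest rise of a member in the mutant line. Ncl fell in mutant cells to 746, 770, 756 and 781 CPM, below all vehicle libraries (log2 -0.20, SE 0.034, edgeR adjusted p = 1.7e-05). In wild-type cells Ncl was at 1064, 1040, 1028 and 1013 CPM, within its vehicle range but for 1 library.

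The wild-type Pam3CSK4 calls moved with the structural RNA share, which was 13.58% to 16.88% with Pam3CSK4 and 19.37% to 28.77% in vehicle. With the share as a covariate edgeR called 0 of the 40 members (3 rose and 1 fell at an unadjusted p under 0.05). Over all 14869 tested genes that fit called 176, against 3277 without the covariate, so the 0 is no result about the members. The shares did not overlap, so share and treatment cannot be told apart in this comparison. Without vehicle libraries 1 and 4 edgeR called 4 rises and 0 falls. DESeq2 without the covariate called 12 rises and 4 falls. In the mutant line the covariate left 24 rises and 1 fall.

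With both agents nearly every member rose. In wild-type cells 37 of 40 rose and 0 fell, with 21.2% of all tested genes called higher and 22.4% called lower, and a median log2 change of 0.34 (all tested genes -0.03). In mutant cells 39 rose and 0 fell, with 23.7% called higher and 20.1% called lower, and a median of 0.36 (all tested genes -0.01). Falls were also 0 in both lines at an unadjusted p under 0.05 and by DESeq2. Libraries did not overlap with vehicle for 36 and 38 members, again without a share over all tested genes to set beside these counts.

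Noc4l again changed most, to 112, 109, 112 and 118 CPM in wild-type and 112, 111, 111 and 117 CPM in mutant cells. These values were above every library with IFNg alone, and the log2 changes against vehicle were 0.83 (SE 0.039, edgeR adjusted p = 5.5e-19) and 0.99 (SE 0.039, edgeR adjusted p = 2e-21). Myc was at 226, 215, 235 and 224 CPM in wild-type and 249, 242, 272 and 259 CPM in mutant cells, overlapping the ranges with IFNg alone. Its log2 changes were 0.41 (SE 0.053, edgeR adjusted p = 1.1e-07) and 0.47 (SE 0.053, edgeR adjusted p = 5.4e-09).

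Dimt1 was at 31.3, 34.0, 30.8 and 32.4 CPM with both agents in wild-type and 39.7, 40.9, 40.6 and 42.7 CPM in mutant cells, so the mutant libraries all stood above the wild-type ones. Members not called in wild-type were Nip7 (-0.16), Npm1 (-0.12) and Nop58 (0.04). In mutant cells Npm1 was the exception at 0.11, while Nip7 (185, 167, 216 and 227 CPM) and Nop58 rose by 0.48 and 0.44. The SSU processome genes rose 9 of 9 in each line, with median log2 changes of 0.43 and 0.48. All 6 late 40S genes rose in each line (0.33 and 0.39), and of the pre-60S genes 11 of 12 rose in wild-type (0.26) and 12 of 12 in mutant cells (0.33).

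**Figure D3:**
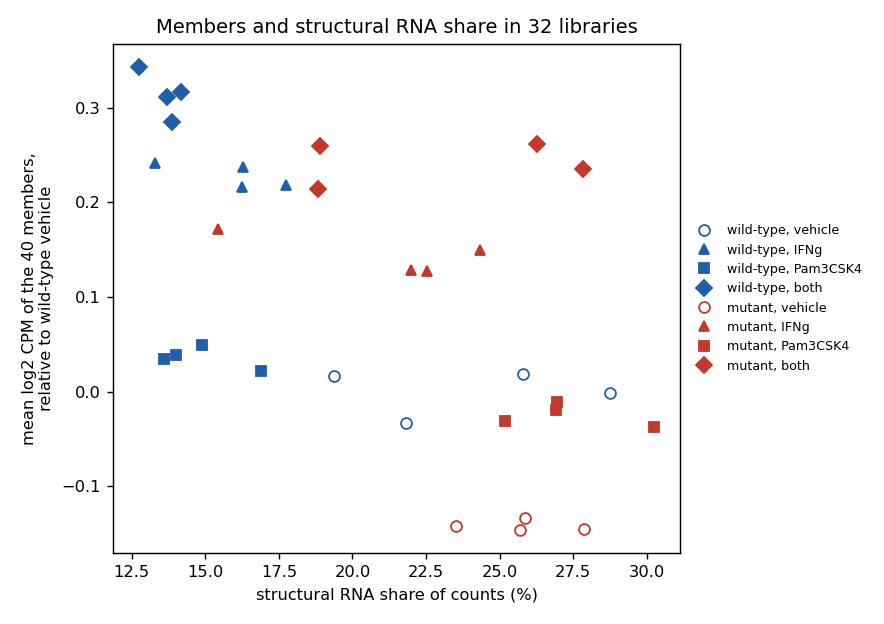
Mean log2 CPM of the 40 members in each of 32 libraries, relative to the wild-type vehicle mean (vertical axis), against the structural RNA share of that library (horizontal axis, %). Groups with both agents stand at 0.285 to 0.343 (wild-type) and 0.214 to 0.262 (mutant), above vehicle at -0.033 to 0.019 and -0.146 to -0.134. In the mutant line the shares with both agents (18.82% to 27.83%) overlap those of vehicle (23.52% to 27.88%). Shares with IFNg (15.44% to 24.34%) and with Pam3CSK4 (25.18% to 30.25%) do not overlap there. The part of the share in the order of the groups was not tested.

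The mean log2 level of the members placed the groups in order. Against the wild-type vehicle mean of 0, the group means were 0.23 with IFNg, 0.04 with Pam3CSK4 and 0.31 with both in wild-type cells. In mutant cells vehicle was at -0.14, IFNg at 0.14, Pam3CSK4 at -0.02 and the combination at 0.24. Within each line the libraries of the 4 treatments did not overlap in this mean, with Pam3CSK4 in wild-type cells (0.022 to 0.049) just above vehicle (-0.033 to 0.019). The Pam3CSK4 libraries of the mutant line (-0.037 to -0.011) overlapped wild-type vehicle (-0.033 to 0.019).

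The size of each response was compared between the lines by the difference of the changes, mutant minus wild-type. For IFNg 1 member differed upward and 1 downward, with 0.827% of all tested genes called higher and 0.82% called lower. Bop1 (chr15:76452989-76477277, minus strand) was at 139, 144, 160 and 152 CPM in wild-type vehicle and 155, 142, 144 and 157 with IFNg. In mutant cells it was at 119, 128, 121 and 120 CPM in vehicle and 148, 138, 138 and 149 CPM with IFNg. Only the mutant ranges were apart, and the difference of the log2 changes was 0.22 (SE 0.06, edgeR adjusted p = 0.045). This call was lost with RLE size factors (0.058), with the structural RNA share in the fit (0.055), with the libraries of the comparison alone (0.12) and when any 1 of 9 libraries was left out (0.08 to 0.13). Those were mutant IFNg 1 and 4, mutant vehicle 1, 3 and 4, wild-type IFNg 2 and 3 and wild-type vehicle 3 and 4.

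The downward one was Ncl, described above, with a difference of -0.24 (SE 0.048, edgeR adjusted p = 0.0041). Across the 40 members the IFNg changes of the lines had Pearson's r of 0.81 and Spearman's rho of 0.79, a description over genes that are not independent replicates. The sign was the same for 38 members, and the change was larger in the mutant line for 32. The median difference was 0.06, with 0.01 for all tested genes.

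**Figure D4:**
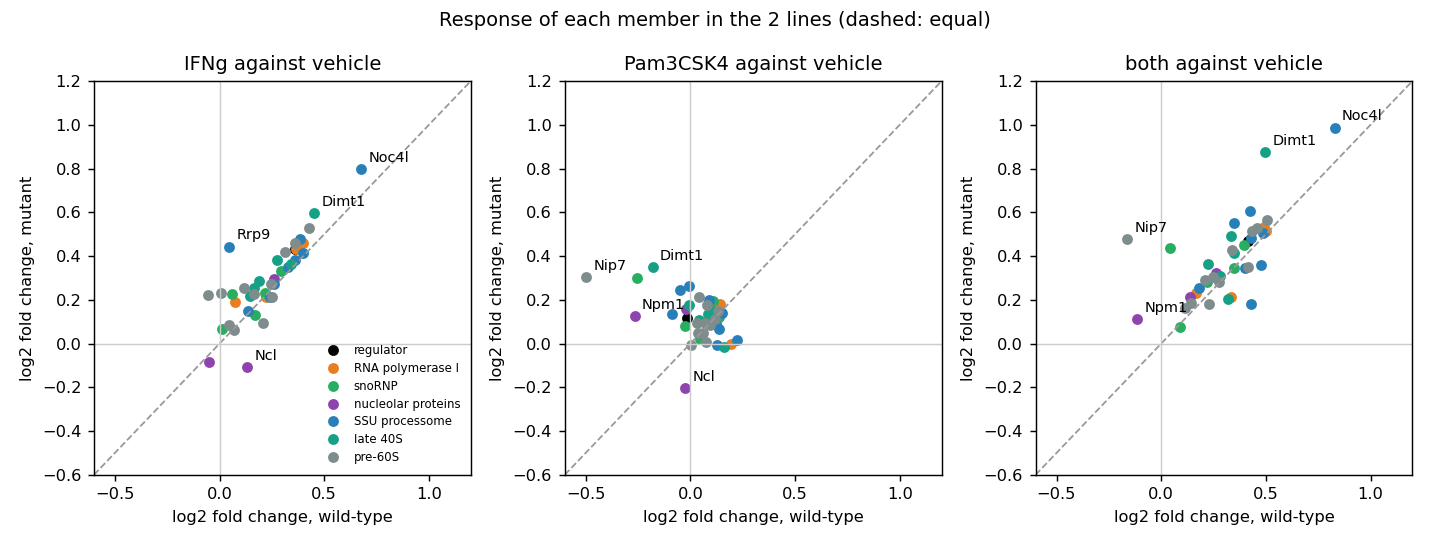
Log2 fold change of each of the 40 members in the mutant line (vertical) against the wild-type line (horizontal) for IFNg, Pam3CSK4 and both agents; colour gives the role and the dashed line marks equal changes. IFNg points lie along the diagonal (r = 0.81), whereas with Pam3CSK4 Nip7 and Dimt1 lie at negative wild-type and positive mutant values (r = -0.47).

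For Pam3CSK4 9 members differed upward and 3 downward, with 14.3% of all tested genes called higher and 12.3% called lower. These counts are near those shares and are no result about the members as a set. The median difference was 0.03 and the lines' changes had r of -0.47 and rho of -0.33 over the 40 members, with the same sign for 25. The largest upward differences were Nip7 (0.80, SE 0.149, edgeR adjusted p = 0.00033), Nop58 (0.55, SE 0.084) and Dimt1 (0.53, SE 0.074, edgeR adjusted p = 2.4e-06). Nop58, a core protein of C/D snoRNPs, was at 382, 322, 297 and 360 CPM in wild-type vehicle and 291, 298, 278 and 275 with Pam3CSK4, with overlap in that line. In mutant cells it was at 319, 330, 320 and 308 CPM in vehicle and 371, 383, 397 and 422 with Pam3CSK4, without overlap. The other upward ones were Npm1, Wdr43, Utp14a, Nob1, Gnl3 and Nop16.

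The 3 downward differences were Utp20 (-0.21, SE 0.061, edgeR adjusted p = 0.01), Polr1a (-0.20) and Ncl (-0.18, SE 0.048, edgeR adjusted p = 0.005). Over all tested genes the structural RNA share in the fit took the calls from 3956 to 1214. With that share in the fit 7 members differed upward and 0 downward (14 and 0 at an unadjusted p under 0.05), 4 of them among the 12 calls without it. Nip7 was then at 0.33 (edgeR adjusted p = 0.033), Dimt1 at 0.43, Nop58 at 0.32 and Wdr43 at 0.29, while Utp20 was at -0.01 (edgeR adjusted p = 0.94). Without wild-type vehicle libraries 1 and 4, 6 differed upward and 1, Ncl, downward.

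For both agents 5 members differed upward and 1 downward, with 8.8% of all tested genes called higher and 6.99% called lower. These counts too are near those shares and are no result about the members as a set. Nip7 (0.64, SE 0.149, edgeR adjusted p = 0.0041), Nop58 (0.39) and Dimt1 (0.38, SE 0.072, edgeR adjusted p = 0.00032) led again, followed by Wdr43 (0.18) and Noc4l (0.16, SE 0.055, edgeR adjusted p = 0.044). Utp20 was the downward one (-0.25, SE 0.061, edgeR adjusted p = 0.0045). Its libraries with both agents were at 246, 248, 244 and 263 CPM in wild-type and 212, 207, 187 and 183 CPM in mutant cells, without overlap between the lines. The Nip7 difference had an edgeR adjusted p of 0.062 without wild-type vehicle libraries 1 and 4, and the Utp20 difference 0.11 with the covariate.

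Whether the combination departed from the sum of the single log2 changes was tested within each line. In wild-type cells edgeR called 0 of 40 members, with 0.592% of all tested genes called changed. At an unadjusted p under 0.05, 7 departed upward and 0 downward, DESeq2 called 1, and leaving out vehicle library 3 gave 5 and library 2 gave 1. In mutant cells 1 of 40 was called, with 1.86% of all tested genes called changed. It was Ncl, which fell with each agent alone but stood at 1098, 990, 965 and 1024 CPM with both, above all mutant vehicle libraries (log2 change 0.21, SE 0.034, edgeR adjusted p = 3.3e-06). The departure from the sum was 0.52 (SE 0.048, edgeR adjusted p = 6.3e-09).

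Other genes of the pathway were described from lists of the same roles. Of 115 further biogenesis genes (14 RNA polymerase I, 14 snoRNP, 42 of 40S and 45 of 60S assembly), 6 were higher and 53 lower in mutant vehicle (24.4% and 29.3% of all tested genes). With IFNg 67 rose and 5 fell in wild-type and 82 rose and 1 fell in mutant cells (median log2 changes 0.13 and 0.20), with 17.8% and 18.3% of all tested genes called higher. Of the 14 further RNA polymerase I genes 4 rose and 0 fell with IFNg in wild-type cells by edgeR (4 and 0 also at an unadjusted p under 0.05 and by DESeq2), 7 had a positive and 7 a negative change, and the median was 0.01. With both agents 78 rose and 5 fell, and 95 rose and 0 fell (0.20 and 0.29; the last count was also 0 at an unadjusted p under 0.05 and by DESeq2). Among all tested genes 21.2% were called higher and 22.4% lower with both agents in wild-type, and 23.7% and 20.1% in mutant cells. With Pam3CSK4 20 rose and 21 fell in wild-type, with 10.4% and 11.7% of all tested genes called, and 56 rose and 2 fell in mutant cells, with 11.5% and 12.8% called. When the structural RNA share entered the fit, 1 rose and 0 fell in wild-type by edgeR (6 and 2 at an unadjusted p under 0.05; calls over all tested genes went from 3277 to 176), and 63 rose and 1 fell in mutant cells.

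With IFNg no gene of these lists rose as far as Noc4l, but in mutant vehicle some were lower by more than Nob1. Nol10, a 40S assembly factor, rose by 0.50 (SE 0.035) in wild-type and 0.70 (SE 0.035) in mutant cells with IFNg. The snoRNP assembly factor gene Nufip1 rose by 0.47 and 0.58, and Rrn3, which recruits RNA polymerase I to its promoter, by 0.29 and 0.28. In mutant vehicle Urb2 (-0.68), Naf1 (-0.62), Utp4 (-0.58) and the polymerase I selectivity factor gene Taf1c (-0.86) were lower. Taf1d (0.50) and Znrd1 (0.32), also of the RNA polymerase I list, were higher there. Nmd3, the export adaptor of 60S subunits, fell by 0.40 in wild-type and rose by 0.49 in mutant cells with Pam3CSK4, as Nip7 and Dimt1 did.

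Genes for the ribosomal proteins themselves did not rise with IFNg, alone or with Pam3CSK4. Of 79, 0 rose and 66 fell with IFNg in wild-type cells, with a median log2 change of -0.25, and 0 rose and 16 fell in mutant cells (-0.14). Among all tested genes 17.8% were called higher and 17.6% lower in wild-type, and 18.3% and 14.9% in mutant cells. By edgeR at an unadjusted p under 0.05 and by DESeq2 the rises were also 0 in these 2 comparisons, while DESeq2 called 37 falls in mutant cells. With Pam3CSK4 58 fell in wild-type cells (-0.26) and 1 rose and 1 fell in mutant cells. Among all tested genes 11.7% were called lower in wild-type, and 11.5% higher and 12.8% lower in mutant cells. With both agents 62 fell in wild-type (-0.24) and 2 in mutant cells (-0.05), and 0 rose by edgeR, also at an unadjusted p under 0.05, and by DESeq2. Among all tested genes 22.4% were called lower in wild-type and 20.1% in mutant cells, and 21.2% and 23.7% higher. Examples in wild-type cells with IFNg were Rpl36 (-0.84, SE 0.176) and Rplp1 (-0.76, SE 0.166).

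These falls moved with the structural RNA share. When it entered the fit, 3 of 79 fell with IFNg in wild-type (median -0.03), 0 with Pam3CSK4 (-0.01; 3 at an unadjusted p under 0.05) and 0 with both (-0.00; 2 at that p), and 2 fell with IFNg in mutant cells (-0.02). Without wild-type vehicle libraries 1 and 4 the falls numbered 17, 1 and 21. In wild-type cells the 40 members gave, over the same alternatives, 28 and 31 rises with IFNg and 35 and 38 with both. With Pam3CSK4 they gave 0 and 4. Calls over all tested genes with the covariate numbered 2800 with IFNg, 176 with Pam3CSK4 and 3643 with both. Share and treatment cannot be told apart in these comparisons, and the part of the share in either list was not tested. Many ribosomal protein genes have near-identical pseudogenes, which the authors' counting could split reads with. Of 10 tested snoRNA host genes, 1 rose and 3 fell with IFNg in wild-type, among the falls Snhg20 (-0.85) and Snhg8 (-0.78), and 2 rose and 1 fell in mutant cells. Beside 17.8% of all tested genes called higher and 17.6% lower in wild-type, and 18.3% and 14.9% in mutant cells, these counts are no result about the list.

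Antagonists of Myc changed by more than Myc itself. Mxd1, which encodes a repressor that competes with Myc for Max, rose by 0.78 with IFNg and 1.37 with both in wild-type, and by 0.97 and 2.31 in mutant cells. Max, the shared partner, rose by 0.45 and 0.44 with IFNg. Mxd4 fell by 0.77 and 0.98 with IFNg, and Mxd3 by 0.82 and 0.84. Mycn was lower in mutant vehicle (-1.67, SE 0.093, edgeR adjusted p = 2.1e-17). Of 11 tested genes of this network 4 rose and 5 fell with IFNg in wild-type and 5 rose and 4 fell in mutant cells. Among all tested genes 17.8% were called higher and 17.6% lower in wild-type, and 18.3% and 14.9% in mutant cells.

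A list of 30 growth genes often described as Myc targets outside ribosome assembly moved less evenly. With IFNg 13 rose and 3 fell in wild-type, and 15 rose and 2 fell in mutant cells. Among all tested genes 17.8% were called higher and 17.6% lower in wild-type, and 18.3% and 14.9% in mutant cells. The cyclin gene Ccnd2 led with 0.45 (SE 0.04) and 0.84 (SE 0.039). With both agents 15 rose and 2 fell, and 22 rose and 1 fell, beside 21.2% higher and 22.4% lower, and 23.7% and 20.1%, of all tested genes. In mutant vehicle 5 were higher and 10 lower, beside 24.4% and 29.3% of all tested genes, so these counts are no result about the list, and among the latter were the amino acid transporter genes Slc7a5 (-0.77) and Slc3a2 (-0.72).

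**Figure D5:**
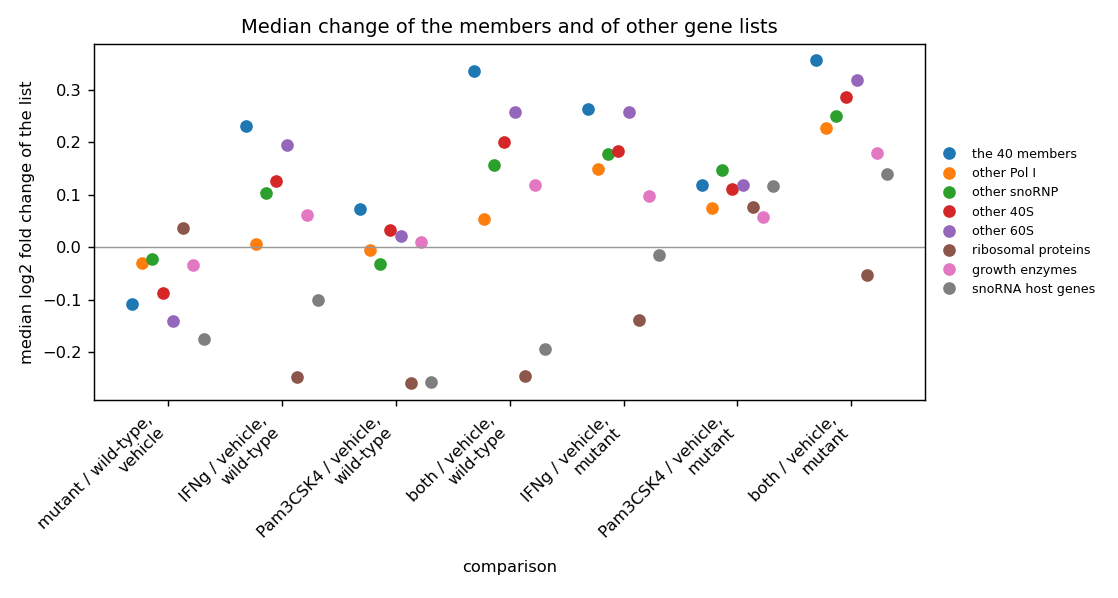
Median log2 fold change (vertical) of the 40 members and of 7 other gene lists (colours) in 7 comparisons (horizontal). The members and the other snoRNP, 40S and 60S lists lie above 0 with IFNg and with both agents, the other RNA polymerase I list lies at 0.01 with IFNg in the wild-type line (-0.00 by DESeq2), and the ribosomal protein genes lie at -0.25 with IFNg and -0.26 with Pam3CSK4 in the wild-type line.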

How the data were processed

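RNA from 32 libraries in 8 groups was prepared with a stranded total RNA kit after ribosomal RNA reduction, per the labels' protocols. The authors deposited, per the file headers, expected counts and TPM for each gene. Reads were processed with STAR 2.5.2b and RSEM 1.3.0 against mm10, per the submitters' processing notes; for annotation release, trimming and strand setting, the sources used here give nothing. Expected counts were rounded to whole numbers (11.07% of non-zero values were not whole). No 2 libraries were identical.

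Genes were named from the GENCODE annotation of mm10 by identifier without version (93 of 55487 unmatched). The filterByExpr function of edgeR 4.0.16 (R 4.3.3) kept 14869 genes and removed 40618. Counts were scaled by TMM, and one quasi-likelihood model with 8 group means (24 residual degrees of freedom) gave 12 contrasts, with Benjamini-Hochberg adjustment over all tested genes and a threshold of 0.05. CPM are on TMM library sizes; deposited TPM were used for levels between genes. The scripts were tested on simulated data. Alternatives were RLE factors, no filter, DESeq2 1.42.0, a replicate block, the structural RNA share as a covariate, structural RNA removed, the libraries of a comparison alone, and libraries left out. The replicate numbers of the labels were not treated as pairs, since same-numbered libraries deviated together with correlations of -0.237 to 0.105.

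Every member could be named. Values in every library are given for Myc and for the called members with the largest rise and fall in each contrast. From other lists up to 2 rises and 2 falls per contrast at 1 CPM or more were eligible. Members, lists and tests were chosen with earlier results of these data known. Structural RNA comprised 6121 listed genes, 166 with counts.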

Additional observations from a re-analysis of the deposited data

Results flagged for a closer look

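Among 80 group and gene combinations checked, 3 had 1 library far from the other 3 by Dixon's test, and chance gives about 1 in 20. Noc4l was at 117 CPM in library 4 of mutant cells with both agents, with the others at 111 to 112. Nip7 was at 167 CPM in library 4 of wild-type cells with IFNg, with the others at 206 to 213. The summed CPM of the 40 members was 9310 in library 1 of mutant vehicle, with the others at 8940 to 8990.

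Responses that differed between the lines by the test of the difference (mutant minus wild-type, log2, edgeR adjusted p) came from 7 named members. With Pam3CSK4 these were Nip7 (0.80, adjusted p = 0.00033), Dimt1 (0.53, adjusted p = 2.4e-06), Nob1 (0.18, adjusted p = 0.022), Utp20 (-0.21, adjusted p = 0.01) and Ncl (-0.18, adjusted p = 0.005). With both agents these were Nip7 (0.64, adjusted p = 0.0041), Dimt1 (0.38, adjusted p = 0.00032), Noc4l (0.16, adjusted p = 0.044) and Utp20 (-0.25, adjusted p = 0.0045). With IFNg these were Ncl (-0.24, adjusted p = 0.0041) and Bop1 (0.22, adjusted p = 0.045). Several of these calls were not kept under the alternatives described above. With the structural RNA share in the fit, both Utp20 calls, the Pam3CSK4 call of Ncl and the Bop1 call were lost. The Bop1 call was also lost with RLE factors. Without wild-type vehicle libraries 1 and 4 the Nip7 call with both agents was lost.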

How the results depend on the processing

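Of 92 alternatives to the counts of called members, other than single libraries left out, 83 stayed within 1.5 times of the value given. With the structural RNA share in the fit the calls numbered 0 for Pam3CSK4 in wild-type cells, 1 for the IFNg difference between the lines and 7 for the Pam3CSK4 difference. Over all 14869 tested genes that fit called 176, 260 and 1214 in the same order. Without wild-type vehicle libraries 1 and 4 the called members numbered 4 for Pam3CSK4 in wild-type cells and 7 for the Pam3CSK4 difference. The IFNg difference also gave 1 with RLE factors and 1 with its own libraries alone. DESeq2 gave 1 departure from the sum in wild-type and 2 in mutant cells. Summed levels were judged apart from these, by a shift of 1 SD. The summed CPM of wild-type IFNg was 10906 (SD 65), and 10798 with RLE factors. The cause was not tested.

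With 1 library left out, called members numbered 23 to 27 for mutant against wild-type vehicle. In wild-type cells they numbered 30 to 31 for IFNg, 14 to 20 for Pam3CSK4 and 36 to 38 for both agents, and in mutant cells 33 to 36, 19 to 20 and 38 to 39. The differences between the lines gave 1 to 3, 10 to 16 and 5 to 8, and the departures 0 to 5 in wild-type (5 without vehicle library 3) and 1 in mutant cells.

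The replicate block changed 2 counts, to 17 for Pam3CSK4 in wild-type cells and 13 for its difference between the lines; same-numbered libraries were not paired, with correlations of -0.237 to 0.105, and between 0 and 2 libraries per comparison correlated best with their own number. At these depths the standard errors of single members in comparisons with vehicle ran from 0.028 (Polr1b) to 0.106 (Nip7) on the log2 scale, which sets the smallest change that could be called. Expression per cell was not measured.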
